A study of Homo sapiens with 12 samples.

Results

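Methotrexate alone was compared with its carrier control in Caco-2 spheroids, using the 3 methotrexate and the 3 control libraries out of 12 in the study. Samples were assigned by their labelled treatment, and all genes were considered: 16733 of the 48162 genes in the deposited count table had enough counts to be tested. Caco-2 is an established human colorectal adenocarcinoma line whose cells take on features of absorptive enterocytes. Cells of passage 26 were embedded in Matrigel and grew for 5 days in DMEM with 20% fetal bovine serum, penicillin and streptomycin, and non-essential amino acids, without a change of medium. The methotrexate group then received methotrexate for 4 h at a dose that the sources used here do not give, and the control group received carrier fluid for the same time. The other 6 libraries, 3 with methotrexate and lactoferrin and 3 with lactoferrin alone, shared the culture and the exposure time, and they serve here to share the estimate of the spread and to give a second methotrexate contrast. The 3 libraries labelled methotrexate held abundant adipocyte and fibroblast transcripts, although neither cell type is named in the culture. Whether they hold the labelled samples alone cannot be told from the files, so every methotrexate value below is that of the libraries so labelled.

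Methotrexate is a folate analogue that lowers the supply of reduced folate in the cell and, in its polyglutamated form, also inhibits thymidylate synthase and enzymes of purine synthesis. Cells deprived of reduced folate run short of thymidylate and purines, which slows DNA replication and can engage the p53 pathway. The intestinal epithelium renews itself quickly and is a known site of methotrexate toxicity.

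The methotrexate libraries held abundant transcripts of adipocyte and fibroblast genes that were scarce in control, while genes of the intestinal epithelium took a smaller share of their counts. Under TMM scaling, which centres the bulk of genes near no change, 10791 (64.5%) genes were called, 5922 (35.4%) of them higher with methotrexate and 4869 (29.1%) lower. When libraries were instead scaled on 48 brush border and cell junction genes, 13075 genes (78.1%) were higher and 44 (0.263%) lower. Cell cycle genes were lower under TMM with medians near that of the epithelial genes. Most genes of lipid synthesis, most mitochondrial transcripts and most p53 targets were higher under both scalings.

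The methotrexate libraries held 47459811, 60591667 and 57029030 counts, against 19892094, 23859094 and 23338317 in control. Between 26285 and 27433 genes were detected with methotrexate, against 21385 to 22520 in control. The mitochondrial genome supplied 6.67, 7.54 and 7.54% of the methotrexate counts and 2, 2.5 and 3.34% of the control counts. The spread between libraries, as a biological coefficient of variation over 8716 genes, was 12% in the methotrexate group and 8.72% in control. The labels do not say whether replicate libraries were grown as separate cultures, so p-values measure only the spread between libraries, which may be technical. In bulk RNA, fewer cells of a type and less RNA per cell cannot be told apart.

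The 22 listed adipocyte genes, which serve fat storage and its release, summed to 21787, 22081 and 22125 CPM (counts scaled to a common library total) in the methotrexate libraries, against 263, 265 and 243 CPM in control. The libraries of the 2 groups stood far apart, and the mean differed 85.5-fold. All 22 were called higher under TMM, where 35.4% of all tested genes were, with a median log2 fold change of 7.76 against 0.03 over all tested genes. ADIPOQ, the adipokine adiponectin, had 60681, 81674 and 80223 counts with methotrexate and 5, 0 and 0 in control. FABP4, a fatty acid carrier of fat cells, had 178773, 273766 and 255011 counts with methotrexate and 37, 1 and 1 in control. In both genes the highest control library was control 1. PLIN1, which coats lipid droplets, had 34095, 42614 and 41658 counts with methotrexate, against 6, 1 and 1 in control. LEP, the hormone leptin, had 281, 238 and 271 counts with methotrexate, against 1, 0 and 0 in control. GPD1, which makes the glycerol backbone of triglycerides, was well measured in both groups, at 2997, 2984 and 2763 CPM with methotrexate and 11.1, 13.1 and 12.2 CPM in control; single-gene levels are TMM-scaled CPM unless stated. Of the 22 genes, 11 were under 1 CPM in control, and those that passed the filter on low counts only through the methotrexate libraries had to differ.

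The 22 fibroblast and matrix genes summed to 11946, 10509 and 10832 CPM with methotrexate and 1360.2, 1437 and 1432 CPM in control. Of 19 tested, 18 were higher under TMM, against 35.4% of all tested genes, and 1 was lower, with a median log2 fold change of 9.06; 10 of the 19 were under 1 CPM in control. COL3A1, a fibrillar collagen, stood at 3977, 3623 and 3734 CPM with methotrexate, against 1.63, 1.49 and 1.31 CPM in control. The exception was FBLN1, the matrix protein fibulin, which was abundant in control as well and had a log2 fold change of -0.90 under TMM and 0.10 under epithelial scaling. Genes of smooth muscle and pericytes summed to 859, 808 and 776 CPM with methotrexate and 201, 269 and 261 CPM in control. Of 12 tested, 10 were higher and 1 lower under TMM, and 7 were under 1 CPM in control. In both lists, genes that passed the filter on low counts only through the methotrexate libraries had to differ.

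Most tested endothelial genes were higher with methotrexate, at low levels. Of 10 tested, 8 were higher and 1 lower under TMM, against 35.4% and 29.1% of all tested genes. Their median log2 fold change was 2.33, against 0.03 over all tested genes. All 10 were higher under epithelial scaling, where 78.1% of all tested genes were. In control 8 of the 10 were under 1 CPM, and those that passed the filter only through the methotrexate libraries had to differ. FLT1, a receptor for vascular growth factor, had 279, 269 and 228 counts with methotrexate and 5, 5 and 6 in control. VWF, the von Willebrand factor of vessel walls, had 177, 214 and 197 counts with methotrexate and 39, 36 and 41 in control. EMCN, an endothelial sialomucin, had 66, 113 and 87 counts with methotrexate and 0 in each control library. The groups stood apart in all of these. The 15 endothelial genes in the table summed to 37.7, 37.8 and 36.1 CPM with methotrexate and 28.7, 33.8 and 37.2 CPM in control, where the ranges overlap; EGFL7, also expressed in control, supplied most of the control counts, at 866, 1183 and 891 counts with methotrexate and 477, 713 and 760 in control. TEK, an endothelial receptor, had 141, 121 and 131 counts with methotrexate and none in control. The red cell gene HBB, the macrophage genes CD68 and MRC1 and the T cell gene CD2 had 0 counts in all 6 libraries. By counting error only, 3 counts allow up to 0.0632 CPM in the shallowest methotrexate library and 0.151 CPM in the shallowest control library. The gene annotation and the counter are not given, so whether reads of these genes could be counted is not known. The 15 macrophage and monocyte genes summed to 212, 213 and 211 CPM with methotrexate and 51.8, 56.00 and 53.8 CPM in control. Of 6 tested, MARCO and CD14 were higher under TMM and AIF1, CSF1R and LYZ lower, and the median was -0.49. MARCO, a scavenger receptor, had 8153, 10093 and 9530 counts with methotrexate and 2, 2 and 6 in control, on average 168 CPM of the methotrexate sum and 0.147 CPM of the control sum. LYZ, the lysozyme, changed by -1.21 and CSF1R, the receptor of a macrophage growth factor, by -0.75 under TMM, without a call under epithelial scaling. C1QA, a complement gene of macrophages, had 15, 39 and 26 counts with methotrexate and 0, 0 and 1 in control. Lymphocyte and mast cell genes summed to 9.23, 11.2 and 12.8 CPM with methotrexate and 7.64, 5.99 and 6.21 CPM in control. The part of these other cell types in the results that follow was not tested.

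**Figure D1:**
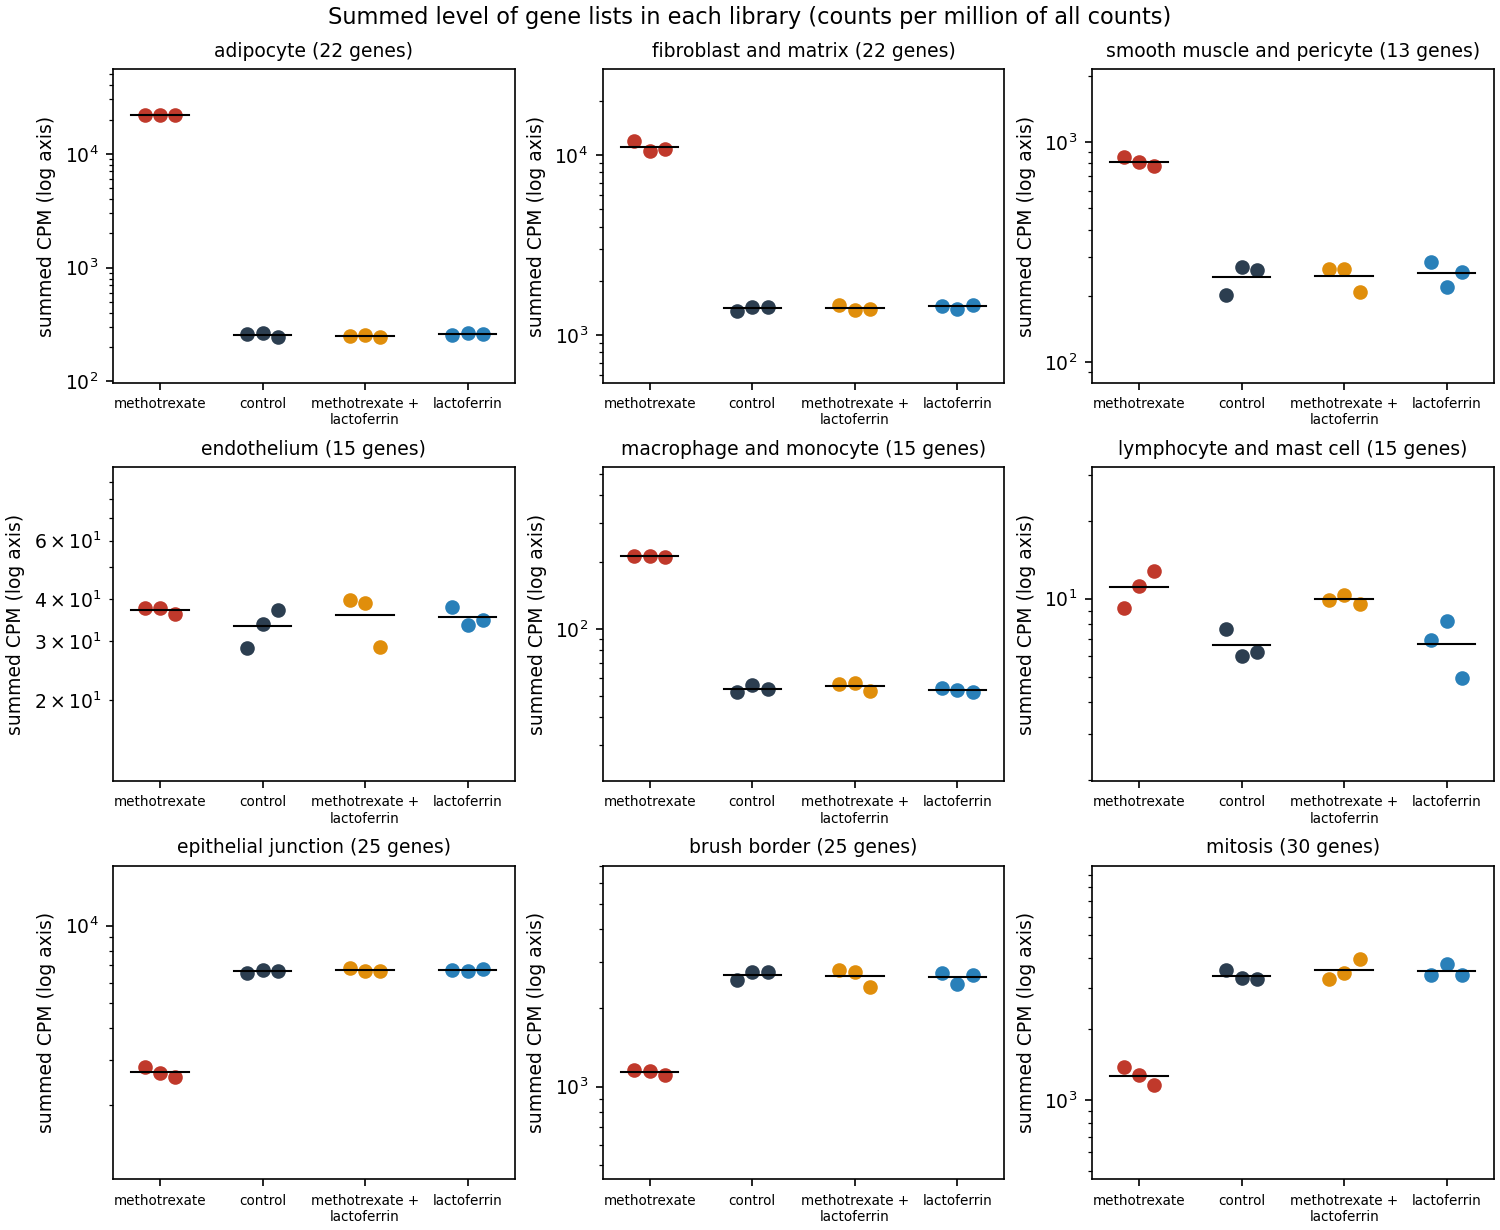
Summed CPM (log axis) of 9 gene lists in each of the 12 libraries, with a bar at the group mean. The methotrexate libraries stand apart from the other groups in the adipocyte list (21787 to 22125 CPM, against 243 to 265 CPM in control), and lie below them in the junction, brush border and mitosis lists.

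Epithelial identity remained visible in every library. CDH1, the E-cadherin of epithelial junctions, stood at 573, 569 and 647 CPM with methotrexate and 1173, 1212 and 1183 CPM in control. VIL1, the villin that bundles actin in microvilli, stood at 411, 399 and 334 CPM with methotrexate and 814, 822 and 847 CPM in control. Both were lower with methotrexate, without overlap between the groups, as 71.5% of all tested genes were apart under TMM. Over the 48 brush border and junction genes that were tested, the median log2 fold change under TMM was -1.03, a ratio of 0.488, and single genes ran from -1.31 to 0.63. Of 23 tested brush border genes 18 were lower and 1 higher, and of 25 junction genes 24 were lower, where 29.1% of all tested genes were lower.

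Epithelial scaling divides each library by the median ratio of those 48 genes, so their centre at no change is a product of the scaling and no result. It moved the median of all tested genes by 1.00 on the log2 scale, to 1.03. After it, 32 of the 48 had a 95% interval inside 0.5 log2 units of no change, where 6.66% of all tested genes did. Since the 48 set the scaling, this contrast is no result either. Changes given under this scaling are relative to the epithelial genes, and those under TMM to the bulk of all genes.

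**Figure D2:**
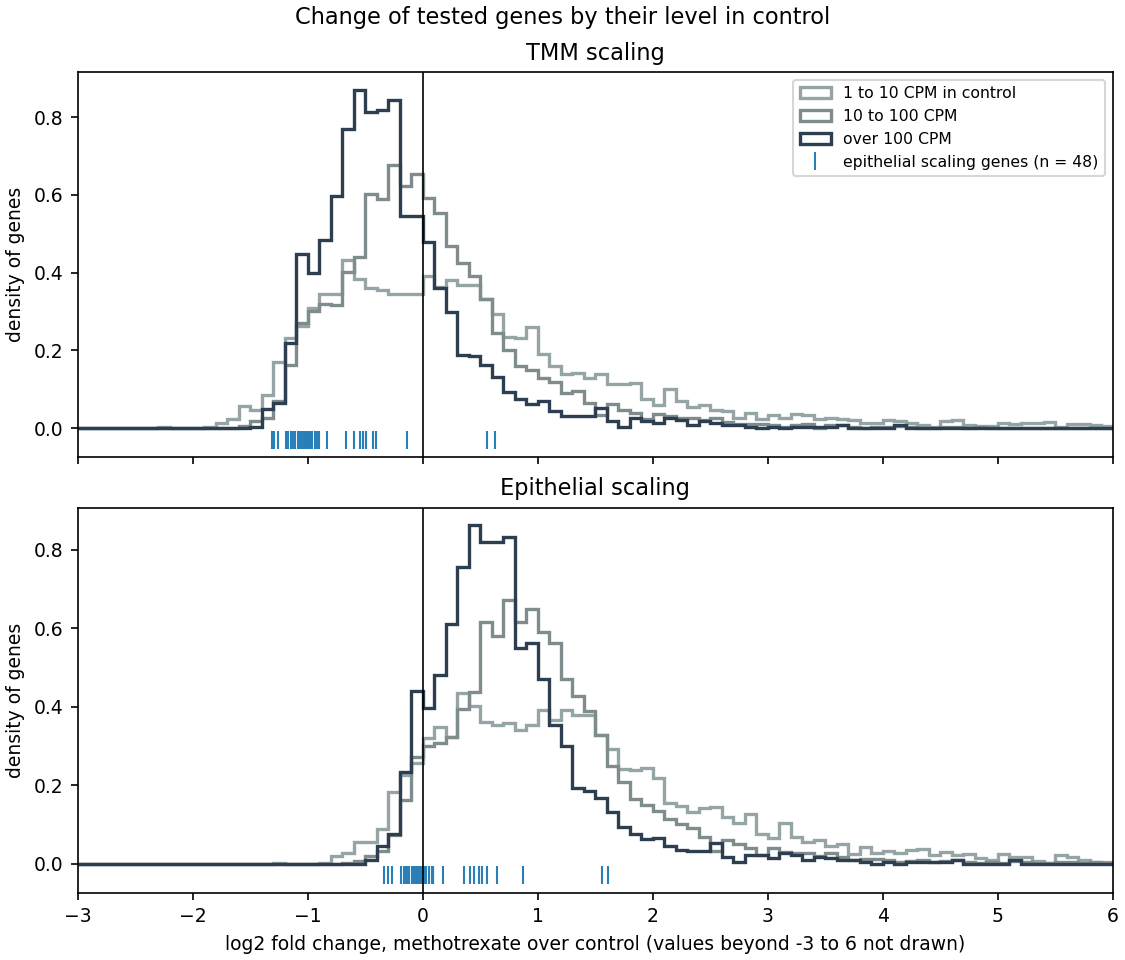
Density of genes by log2 fold change of methotrexate over control, under TMM (top) and epithelial scaling (bottom), for 3 ranges of control level; ticks mark the 48 genes used for epithelial scaling. The ticks centre at -1.03 under TMM, at the left edge of the bulk of genes, and the bulk lies above 0 under epithelial scaling.

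The 4869 genes lower under TMM fell into 3 classes. For 2541 of them epithelial scaling left no call. Of those, 1054 had an interval inside 0.5 log2 units, so these 1054 fell with the epithelial genes to within that margin. The interval leaves out the error of the scaling factors. For the rest of the 2541, the missing call does not show an equal fall. Another 2284 were higher under epithelial scaling, that is, they fell less than the epithelial genes did. The remaining 44 were lower under both scalings, 0.263% of tested genes. All 5922 genes higher under TMM were also higher under epithelial scaling, which moves genes up by about 1.00 log2 units. By the same shift, genes lower under epithelial scaling were bound to be lower under TMM. Calls under both scalings are therefore not independent checks. A further 4869 genes without a call under TMM were higher under epithelial scaling. Whether a gene above the epithelial level rose in the Caco-2 cells or was added by other RNA cannot be told apart from these libraries.

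Genes scarcer in control stood further above the epithelial level, and those near 0 in control could pass the filter only through a group where they were high. Of 841 genes under 0.1 CPM in control, 840 were higher under TMM. Of 2274 genes over 100 CPM, 58.2% were lower under TMM, and the median under epithelial scaling was 0.63. No gene above 10 CPM in control had a log2 fold change under -1 with epithelial scaling. Altogether 333 tested genes had no count in any control library, and all 333 were higher with methotrexate.

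**Figure D3:**
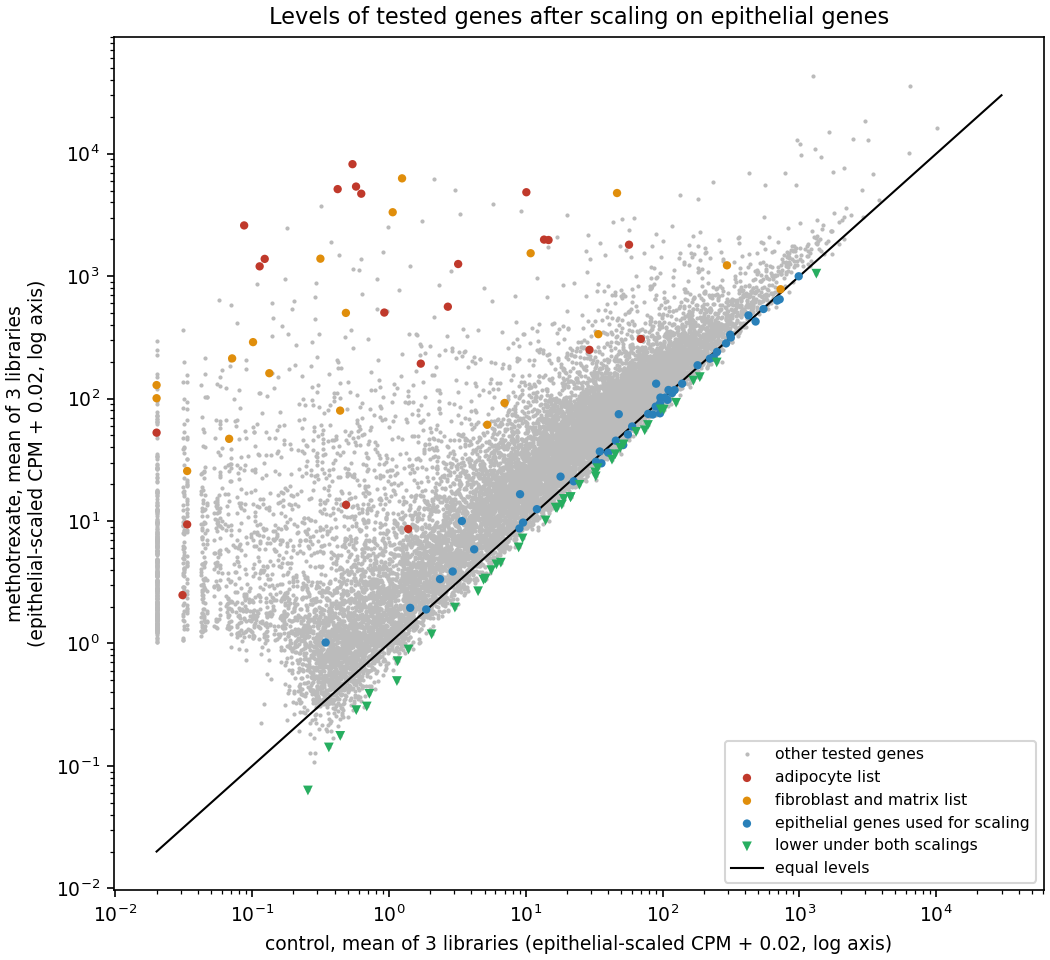
Mean level of each tested gene in 3 methotrexate libraries against its mean in 3 control libraries, both in epithelial-scaled CPM plus 0.02 on log axes. Adipocyte and fibroblast genes lie far above the line of equal levels, the epithelial genes lie along it, and the 44 genes lower under both scalings lie just below it.

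Counts above the control level, scaled by the epithelial genes, made up 56.8, 57.6 and 61.5% of the methotrexate libraries 1, 2 and 3. They were spread widely: 325 genes held 50% of them and 4741 held 90%. Genes over 100 CPM in control held 53% and those under 1 CPM held 7.88%. The mitochondrially encoded genes held 10.5%, fatty acid synthesis and lipid storage genes 7.98%, adipocyte genes 3.73%, cytosolic ribosomal proteins 2.88%, fibroblast genes 1.79% and endothelial genes 0.0038%. The 12 genes with the most such counts were 8 mitochondrial genes, SCD, FASN, APOE and FABP4. SCD, the desaturase that makes monounsaturated fat, stood at 26766, 26427 and 25204 CPM with methotrexate and 1497, 1537 and 1516 CPM in control. MT-CO1, a subunit of cytochrome oxidase, stood at 20528, 22231 and 21814 CPM with methotrexate and 5397, 7255 and 10493 CPM in control.

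Lipid synthesis genes were higher with methotrexate. Of 23 fatty acid synthesis and lipid storage genes, 21 were higher under TMM, against 35.4% of all tested genes, with a median log2 fold change of 3.41, and none was lower. FASN, the fatty acid synthase, had 7629, 7066 and 7003 CPM with methotrexate and 949.9, 1239 and 1474 CPM in control, a log2 fold change of 2.57 (SE 0.147, edgeR's quasi-likelihood test, adjusted p = 5.79e-10). The groups did not overlap. ACLY, which feeds acetyl-CoA to it, had a log2 fold change of 3.03, and SREBF1, a regulator of lipid synthesis, of 2.65. These genes are expressed by fat cells as well as by Caco-2. In cholesterol synthesis 15 of 22 genes were higher and 3 were lower under TMM: INSIG1, a sterol sensor, had 2.87, while SQLE, which makes squalene epoxide, had -0.44.

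Most apolipoprotein and chylomicron genes were lower under TMM only. Of 13 tested, 8 were lower and 2 higher under TMM, where 29.1% of all tested genes were lower and 35.4% higher. Under epithelial scaling 3 were higher and 1 lower, against 78.1% and 0.263% of all tested genes. APOA1, the main protein of HDL, had 1182, 1188 and 1215 CPM with methotrexate and 2677, 2691 and 2306 CPM in control, and its change under epithelial scaling was -0.09 (adjusted p = 0.45 by edgeR's quasi-likelihood test). The 2 that were higher were APOE and APOC1, which macrophages and fat tissue also make. APOE stood at 7816, 8009 and 7954 CPM with methotrexate, against 3145, 3268 and 2540.3 CPM in control.

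Most intestinal transcription factors were lower under TMM only. Under TMM 15 of 18 were lower, against 29.1% of all tested genes, with a median of -1.14. Under epithelial scaling 1 was lower, where 0.263% of all tested genes were. HNF4A, a master regulator of the enterocyte, had a log2 fold change of -1.10 under TMM and -0.12 under epithelial scaling. Transporters of sugars, amino acids and drugs were lower in 18 of 23 cases under TMM, with a median of -1.01. The exception with the largest change was SLC2A5, the fructose transporter, with 165, 202 and 187 CPM with methotrexate and 12.2, 9.88 and 8.83 CPM in control.

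Mitotic genes fell in every case under TMM: 30 of 30, against 29.1% of all tested genes, with a median of -1.12. Under epithelial scaling 4 of 30 were lower, against 0.263% of all tested genes, with a median of -0.13. The median of all tested genes was 1.03 there, so that share is no close match for a list centred near the epithelial level. Of the 4, only CENPA kept its call with scaling on the junction list, and only CENPA kept it without methotrexate 3. TPX2, a spindle assembly factor, had 184, 171 and 169.8 CPM with methotrexate and 407, 369.7 and 387 CPM in control, a log2 fold change of -1.15 (SE 0.0802, adjusted p = 3.9e-09). Under epithelial scaling its change was -0.15 (adjusted p = 0.191). Of 35 genes of the G1/S transition and DNA replication, 33 were lower under TMM, against 29.1% of all tested genes, with a median of -0.94. Under epithelial scaling none was lower and 9 were higher, with a median of 0.06, where 78.1% of all tested genes were higher with a median of 1.03. MCM7, a subunit of the replicative helicase, changed by -0.94 under TMM and 0.05 under epithelial scaling.

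The motif TTTGAA is known from promoters of mitotic genes as the cell cycle homology region. It was found on either strand within 300 bases around the start in 20 of 27 mitotic genes with a RefSeq promoter (74.1%), in 15.2% of 35116 promoters, in 1 of 19 of the junction genes (5.26%) and in 6 of 30 genes lower under both scalings (20%). Examples of mitotic promoters, chosen after the values of these genes were seen, are printed from RefSeq GRCh38.p14 with the motif in capitals. That of BUB1B, a checkpoint kinase, lies at chr15:40160819-40161118 and that of CCNB2, a cyclin of mitosis, at chr15:59104896-59105195. That of CENPA, a centromeric histone, lies at chr2:26785806-26786105 and that of KIF20A, a kinesin of cell division, at chr5:138178862-138179161. All are on the plus strand. BUB1B, CCNB2 and CENPA carry the motif and KIF20A does not. CENPA and KIF20A were lower under both scalings, but KIF20A lost that call with scaling on the junction list and without methotrexate 3.
BUB1B: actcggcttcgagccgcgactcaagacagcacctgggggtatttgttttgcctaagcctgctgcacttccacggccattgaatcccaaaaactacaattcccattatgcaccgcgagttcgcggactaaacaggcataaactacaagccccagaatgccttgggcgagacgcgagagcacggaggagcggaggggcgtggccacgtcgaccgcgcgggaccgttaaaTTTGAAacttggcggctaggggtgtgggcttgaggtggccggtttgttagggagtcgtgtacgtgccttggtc
CCNB2: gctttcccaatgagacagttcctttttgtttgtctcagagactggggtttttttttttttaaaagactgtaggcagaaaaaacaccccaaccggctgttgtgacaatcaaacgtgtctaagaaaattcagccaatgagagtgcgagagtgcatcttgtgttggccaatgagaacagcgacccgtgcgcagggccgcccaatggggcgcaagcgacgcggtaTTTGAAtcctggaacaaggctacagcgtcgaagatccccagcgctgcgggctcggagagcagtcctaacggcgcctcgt
CENPA: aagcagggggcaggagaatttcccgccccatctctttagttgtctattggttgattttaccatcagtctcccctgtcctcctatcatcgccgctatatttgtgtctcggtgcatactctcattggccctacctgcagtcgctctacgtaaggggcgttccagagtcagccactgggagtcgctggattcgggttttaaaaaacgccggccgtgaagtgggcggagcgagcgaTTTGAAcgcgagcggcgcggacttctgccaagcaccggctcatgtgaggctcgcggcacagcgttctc
KIF20A: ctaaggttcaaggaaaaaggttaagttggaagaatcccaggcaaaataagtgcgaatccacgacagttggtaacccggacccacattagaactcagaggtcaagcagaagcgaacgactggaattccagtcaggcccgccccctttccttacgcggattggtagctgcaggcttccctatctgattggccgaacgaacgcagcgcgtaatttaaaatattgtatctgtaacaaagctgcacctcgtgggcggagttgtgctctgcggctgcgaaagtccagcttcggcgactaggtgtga
A match is a description of the letters only. BUB1B stood at 25.3, 22.1 and 19.6 CPM with methotrexate and 53.98, 48.7 and 52.1 CPM in control, and CCNB2 at 39.9, 36.8 and 33.1 CPM with methotrexate and 90.1, 77.6 and 82.2 CPM in control. Neither group overlapped the other in either gene, and both changes were without a call under epithelial scaling (-0.21 and -0.19).

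TYMS, the thymidylate synthase that polyglutamated methotrexate inhibits, was lower under TMM and had no call under epithelial scaling. It had 23.1, 21.6 and 21.2 CPM with methotrexate and 48.5, 42.97 and 46.3 CPM in control, with a change of -0.06 under epithelial scaling (SE 0.119, adjusted p = 0.639 by edgeR's quasi-likelihood test). The groups stood apart in CPM, with methotrexate the lower. Of 24 folate cycle genes 7 were higher and 7 lower under TMM, shares near those of all tested genes (35.4% higher and 29.1% lower). FPGS, which adds glutamates to folates and to methotrexate, was higher by 1.32, and ALDH1L1, which consumes formyl folate, by 9.19, at 580.1, 571 and 545 CPM with methotrexate and 0.766, 1.12 and 0.971 CPM in control. Of 31 purine and pyrimidine genes, 15 were lower and 7 higher under TMM, with a median of -0.28. Under epithelial scaling none was lower and 26 were higher, near the 78.1% of all tested genes, and their median of 0.73 lay below the 1.03 of all tested genes.

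Most p53 targets were higher under TMM. Of 28 tested, 22 were higher and 1 lower, against 35.4% and 29.1% of all tested genes, with a median of 0.90 against 0.03. Under epithelial scaling all 28 were higher, where 78.1% of all tested genes were, with a median of 1.92 against 1.03. CDKN1A, the p21 inhibitor of cyclin-dependent kinases, had 1010.4, 1001 and 1084 CPM with methotrexate and 18.2, 19.3 and 15.2 CPM in control (log2 fold change 5.88, adjusted p = 1.48e-15). MDM2, the ligase that limits p53, changed by 0.42 and GDF15, a secreted stress factor, by -0.63. The 3 largest fitted changes, of EDA2R, SPATA18 and PHLDA3, were in genes under 1 CPM in control. Immediate early genes were higher in 29 of 34 cases under TMM, with a median of 2.11; JUN, a subunit of AP-1, had 246, 178 and 258 CPM with methotrexate and 12.7, 13.7 and 13.5 CPM in control. MYC stood at 132, 115 and 41.7 CPM with methotrexate and 145, 170.2 and 190.1 CPM in control, with methotrexate 3 far below the other 2, and changed by 0.16 under epithelial scaling (adjusted p = 0.554). NRF2 targets were higher in 16 of 21 cases and lower in 2.

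Mitochondrially encoded genes had changes above the bulk of genes, and ribosomal genes below it. The 13 mitochondrially encoded proteins were higher in 12 cases under TMM, with a median of 1.67 against 0.03 over all tested genes. Of 41 nuclear subunits of oxidative phosphorylation, 19 were higher and 3 lower under TMM, against 35.4% and 29.1% of all tested genes, with medians of 0.19 under TMM and 1.19 under epithelial scaling, near the 0.03 and 1.03 of all tested genes. Ribosome biogenesis genes were lower in 26 of 31 cases under TMM, with a median of -0.55, and higher in 27 under epithelial scaling, with a median of 0.45 that lay below the 1.03 of all tested genes. Of 84 cytosolic ribosomal proteins 53 were lower and 4 higher under TMM, where 29.1% of all tested genes were lower and 35.4% higher. Under epithelial scaling none was lower and 77 were higher, where 78.1% of all tested genes were higher, and their median was 0.62, so their direction turns with the scaling.

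**Figure D4:**
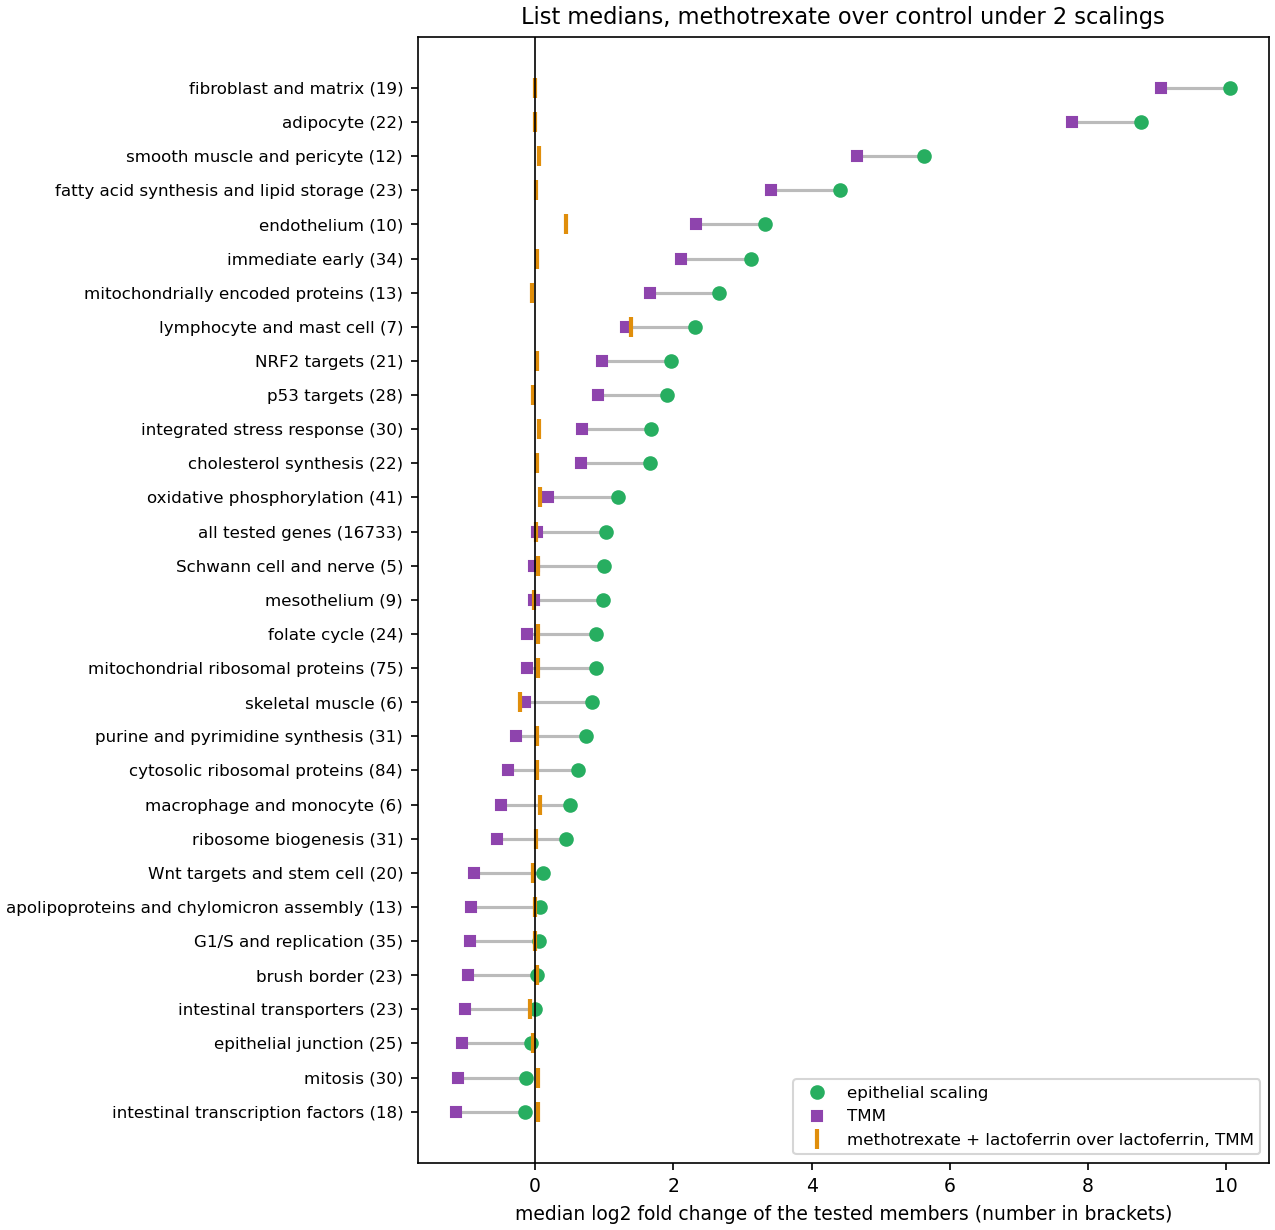
Median log2 fold change of each list with at least 5 tested members, under TMM (squares) and epithelial scaling (circles), with the same median for methotrexate with lactoferrin over lactoferrin (bars). Lists run from fibroblast and matrix (9.06 under TMM) down to intestinal transcription factors (-1.14), and the bars lie near 0 in most lists.

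Genes lower under both scalings were 44, with changes under epithelial scaling from -2.20 to -0.25 and a median of -0.44. The 6 that passed 2-fold were scarce, none with an average log2 CPM of 1 or more. In 38 of the 44 the libraries of the groups did not overlap under epithelial scaling, where 80.9% of all tested genes did not. Methotrexate 3 was the lowest of the 3 methotrexate libraries in 33. The set depends on single libraries: 78 genes were lower without methotrexate 1, 28 without methotrexate 3, 23 without control 1 and 26 without control 3. It also depends on the genes used for scaling, with 160 on the brush border list, 17 on the junction list and 3 on the intestinal transcription factor list. With any 1 methotrexate or control library left out, 5 of the 44 kept their call in all 6 fits. They include ASAH2, CENPA, CLEC3A and FGA, chosen after their values were seen. Of these named genes, only CLEC3A kept its call on the intestinal transcription factor list.

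Among the named genes of this class, ASAH2, a ceramidase of the brush border, had 3.58, 3.73 and 2.81 epithelial-scaled CPM with methotrexate and 5.61, 4.23 and 5.34 in control. Its log2 fold change was -0.58 (SE 0.188, edgeR's quasi-likelihood test, adjusted p = 0.00926). LRP2, the endocytic receptor megalin, had 97.5, 89.97 and 89.8 with methotrexate and 112, 109 and 155 in control, a change of -0.44 (adjusted p = 0.00684). CENPA, whose promoter is printed above, had 11.2, 10.5 and 8.60 with methotrexate and 13.04, 13.7 and 15.03 in control, a change of -0.46 (adjusted p = 0.00981). The groups did not overlap in these 3. GPX2, a gastrointestinal glutathione peroxidase, had 28.5, 21.2 and 19.8 with methotrexate and 28.6, 26.03 and 42.7 in control, where the groups overlap. HIST1H4C, SYK, ALPPL2, LINC00668, TRPM6, LINC00857 and ERVMER34-1 changed by between -0.75 and -0.43, and counts of the histone HIST1H4C and of ALPPL2 may include reads of near-identical copies.

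**Figure D5:**
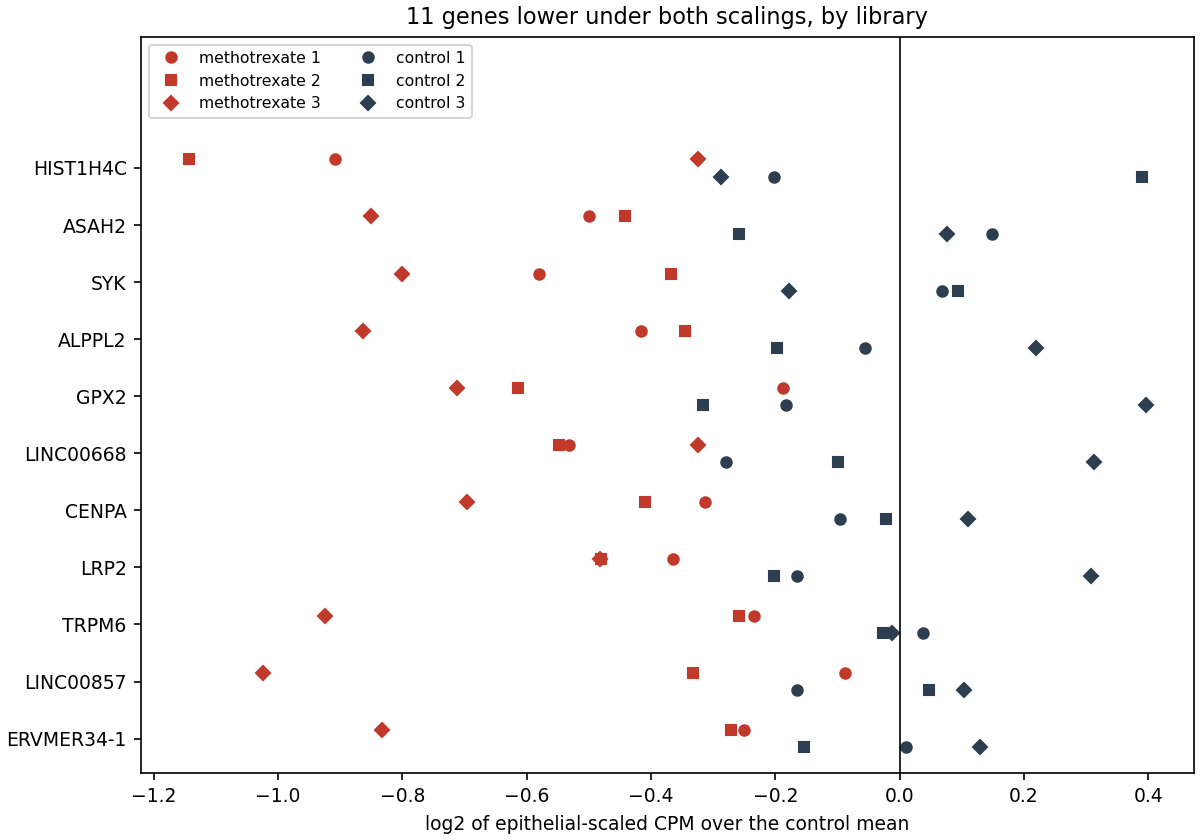
Log2 ratio of each library's epithelial-scaled CPM to the control mean for 11 genes lower under both scalings, with methotrexate above control in each pair of lines. Methotrexate 3 is the lowest methotrexate library in 9 of the 11, and the groups overlap in GPX2 and LINC00857.

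Among genes with at least 10 CPM in control, the 12 with the largest rise under TMM had log2 fold changes from 4.97 to 7.91. They were GPD1, COL6A2, ACSL1, CIDEC, COL5A1, LIPE, SERPINF1, CDKN1A, COL1A1, GBE1, ELOVL6 and NEAT1, and 7 of them are on the adipocyte, fibroblast or fatty acid lists. LIPE, the hormone-sensitive lipase, had 1295, 1160.0 and 1109 CPM with methotrexate and 15.3, 18.8 and 18.8 CPM in control. GBE1, which branches glycogen, had 559.6, 591 and 594 CPM with methotrexate and 16.2, 13.1 and 14.3 CPM in control. NEAT1, a long noncoding RNA of nuclear paraspeckles, had 1297, 2072 and 1592 CPM with methotrexate and 51.5, 60.6 and 45.7 CPM in control. The groups stood apart in each.

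The second methotrexate contrast, methotrexate with lactoferrin against lactoferrin alone, shares no library with the first. It called 3 genes, or 0.0179%, all higher: VIM, LGALS1 and MSN, by log2 fold changes of 1.79, 1.68 and 2.27 (edgeR's quasi-likelihood test). At an unadjusted p under 0.05 there were 565 genes (3.38%). The count varied with the method: limma-voom and the fit of the 2 groups alone gave 0, DESeq2 gave 7, and the fit without lactoferrin 3 gave 0. Adipocyte transcripts summed to 252, 256 and 245 CPM with both agents and 253, 268 and 261 CPM with lactoferrin alone, close to control. The 44 genes lower under both scalings had a median of 0.07 in this contrast, 14 below 0 and 30 above. A test of the difference between the 2 methotrexate effects called 46.7% of tested genes under TMM and 66.9% under epithelial scaling.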

How the data were processed

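RNA of 12 Caco-2 samples was sequenced in bulk. The submitters' processing notes name CASAVA, STAR, DESeq2 and the build hg19, while their versions, the gene annotation and the counter were not given. The authors deposited raw counts per gene, 48162 genes by 12 libraries, and 15233 genes hold no count. Replicate libraries differed by more than sampling noise, with a chi-square per degree of freedom of 7.45 to 44.2. Whether counts keep strand is not given, so antisense and overlapping genes and close paralogs may share counts.

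The analysis used edgeR 4.0.16 under R 4.3.3. The filter filterByExpr kept 16733 genes. Quasi-likelihood models with a mean for each of the 4 groups were fitted over the 12 libraries, first with TMM factors and then with library sizes from the median ratio over 48 of 50 brush border and junction genes. The coefficient of variation was 12.9%, with 8 residual degrees of freedom. P-values were adjusted by Benjamini-Hochberg over all tested genes and called under 0.05. Library totals of 18714054 to 60591667 counts make 3 counts worth 0.16 to 0.0495 CPM, and such floors cover counting error only. Intervals cover counting error and the fitted spread between libraries, but not the error of the scaling factors. The pipeline was tested on simulated data with known changes. There, added RNA went only to genes scarce in control, and the epithelial genes were left unchanged. In these libraries genes over 100 CPM in control held 53% of the counts above the scaled control level. The simulation therefore cannot tell how well either scaling works here.

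The members, gene lists and tests were chosen with earlier results of these data known. The lists are described by counts and medians; setting genes with no control count at their lower bound, against 3 counts over the group, left the TMM medians as they were. Named genes, clone names passed over, are the 12 lowest changes under epithelial scaling among genes lower under both scalings (average log2 CPM at least 1), the 12 largest rises with at least 10 CPM in control, the 12 with the most counts above the scaled control level, genes that also changed with lactoferrin (up to 10 a direction), up to 3 members of each list by p, and ADIPOQ, LEP, TYMS, CDKN1A and MYC. Some genes that these rules take are not reported here. Others named in the text were chosen after their values were seen. Where a promoter is shown, it comes from RefSeq. Alternatives were other scalings, filters and tests (DESeq2 1.42.0, limma 3.58.1), a term for the replicate number, thinning, and leaving out each library.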

Additional observations from a re-analysis of the deposited data

Results flagged for a closer look

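The effect of methotrexate differed without and with lactoferrin for 7809 genes under TMM (46.7% of tested genes) and 11194 under epithelial scaling (66.9%), by edgeR's quasi-likelihood test of the interaction with Benjamini-Hochberg adjustment. Of the 12 genes with the lowest changes among those lower under both scalings (average log2 CPM at least 1), 12 differed under TMM and 7 under epithelial scaling; the other 5 were HIST1H4C, SYK, LRP2, TRPM6 and ERVMER34-1. Of the 12 named rises with at least 10 CPM in control, 12 differed under either scaling. Of the 12 genes with the most counts above the scaled control level, 11 differed under either scaling. The other was FABP4, with 3, 1 and 0 counts with both agents and 0, 1 and 0 with lactoferrin alone, too few to measure the methotrexate effect with lactoferrin. Since the methotrexate libraries without lactoferrin also carry the adipocyte and fibroblast transcripts, and those with it do not, the part of these transcripts in the differences was not tested.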

How the results depend on the processing

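No named gene called in the main fit or in an alternative had the opposite sign in the other. Genes without a call in both were not compared for sign. The balance of TMM calls turned with upper quartile factors, to 5379 higher and 5711 lower (48.5% higher, against 54.9%). The median of all genes was then -0.07. Of the single named genes, 13 values under TMM and 79 under epithelial scaling lost their call and 20 under epithelial scaling gained one. The count lower under both scalings was 160, 17 and 3 on the brush border, junction and intestinal transcription factor lists, 1 at an adjusted p under 0.01 with over 2-fold, and 23 to 78 with a library left out. At that stricter threshold 4525 genes were called under TMM, 8345 under epithelial scaling and 3296 in the difference of the methotrexate effects. At the main threshold, with a compared library left out, these counts were 9984 to 10281, 12771 to 13016 and 6996 to 8216. For methotrexate with lactoferrin against lactoferrin, 19 genes were called without a filter, 7 by DESeq2, 0 by limma-voom and 0 in the compared groups alone, and 0 to 5 with a library left out. The median of the epithelial genes was -1.14 with upper quartile factors and -1.30 on total counts. The intestinal transcription factor genes, a different set, had a median of -1.14 under TMM. The excess share was 54.5% on the brush border list. Without a filter 52 genes were lower under both, of which 26 were among the 44. Whether the replicate numbers pair the samples is not known. Correlations of methotrexate with control libraries were -0.335, 0.149 and -0.28 for the same number and -0.28 to 0.368 for different numbers. With 3 libraries a group, they cannot decide it. With a replicate block 10370 genes were called under TMM, 12924 under epithelial scaling, 35 lower under both, 3 with lactoferrin and 7293 in the difference. Depth limits genes near the control floor of 0.151 CPM. The causes of these shifts were not tested.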
